A study of Mus musculus with 16 samples.

Results

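The 10 genes described here build and work on the chromosomes of the first meiotic division: Sycp1, Sycp2, Sycp3 and Hormad1 of the chromosome axis and synaptonemal complex, Stag3, Smc1b and Rec8 of meiotic cohesin, Spo11 and Dmc1 of recombination, and the heat shock protein gene Hspa2. They were taken by symbol from a table of 38087 genes, and all 10 were found. RNA was measured by total RNA sequencing in whole gonads of C57BL/6j mice aged 15 to 16 weeks, collected 2 to 4 hours after lights on and fed ad libitum. Germ-free mice (GF), which are raised without microbes, gave 3 testes and 5 ovaries. Conventionally raised mice (CV), which carry a gut microbiota, gave 4 testes and 4 ovaries. Tissue and sex were 1 factor, and no label states whether each library stands for its own animal. The p-values therefore reflect variation from library to library, part of which may be technical.

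In GRCm38 (GENCODE M21) Sycp1 (ENSMUSG00000027855) lies on chromosome 3 at 102818499 to 102936100 and Hormad1 (ENSMUSG00000028109) on the same chromosome at 95559677 to 95587671. Sycp2 (ENSMUSG00000060445) lies on chromosome 2 at 178345293 to 178407685, as does Spo11 (ENSMUSG00000005883) at 172977700 to 172993576. Sycp3 (ENSMUSG00000020059) lies on chromosome 10 at 88459569 to 88473236 and Stag3 (ENSMUSG00000036928) on chromosome 5 at 138280240 to 138312393. Smc1b (ENSMUSG00000022432) and Dmc1 (ENSMUSG00000022429) lie on chromosome 15, at 85064689 to 85131964 and at 79561497 to 79605109. Rec8 (ENSMUSG00000002324) lies on chromosome 14 at 55618037 to 55625395 and Hspa2 (ENSMUSG00000059970), with 2 merged exons the simplest of the 10, on chromosome 12 at 76404176 to 76406938. All are annotated as protein coding, and counts were summed over each gene.

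In meiosis, replicated chromosomes find their partners, exchange DNA and separate. Cohesin rings hold sister chromatids together and, with axis proteins, form a core along each chromosome; the synaptonemal complex then zips the cores of partner chromosomes together. SPO11 cuts the DNA to start recombination, and DMC1 carries the cut strand to the partner chromosome. In the adult testis spermatocytes pass through these steps continuously, whereas in the mouse ovary oocytes complete pairing and recombination around birth and then rest at a late stage of the first meiotic prophase.

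The libraries held 25880591 to 28266867 counts in testis and 12912251 to 15907297 counts in ovary, so counting error weighed more on ovary values. Levels are given as CPM, counts set to a common library size and scaled by TMM, which balances libraries by the genes that differ least. Of the markers checked, all but Sox9 had ranges apart between the labelled tissues. Prm1, a protamine of late spermatids, was at 3799 to 4217 CPM in testis and 0.049 to 0.394 CPM in ovary. Foxl2, a granulosa cell factor, was at 0 to 0.158 CPM in testis and 17.1 to 24.8 CPM in ovary. Zp3 of the oocyte coat stood at 0.205 to 0.405 CPM in testis and 13.1 to 21.8 CPM in ovary. Gdf9, another oocyte marker, was also present in testis, at 12.3 to 14.8 CPM against 21.6 to 47.7 CPM in ovary. Sox9, a Sertoli cell factor, was at 5.82 to 8.86 CPM in testis and 3.14 to 9.07 CPM in ovary. Xist was at 0.581 to 0.973 CPM in GF testis and 0.507 to 6.93 CPM in CV testis, against 876 to 1217 CPM in ovary. The biological coefficient of variation was 4.17% in testis and 18.5% in ovary.

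All 10 genes were higher in testis than in ovary, in GF and in CV mice alike, and the ranges of the tissues did not overlap for any of them, as for 86.9% of all genes in GF and 88.2% in CV mice. This was called for all 10 in both conditions (edgeR quasi-likelihood test over 21977 genes, Benjamini-Hochberg adjusted p under 0.05), where 46.1% of all genes were called higher in testis in GF mice and 46.3% in CV mice. The median log2 difference of the 10 genes was 8.25 in GF and 8.46 in CV mice, against 0.04 and 0.05 for all genes tested. In whole organs, fewer cells of a type and less RNA per cell cannot be told apart. Scaling the tissues by library totals moved the median log2 difference of all genes by -0.79 in GF and -0.81 in CV mice, and the share of called genes that were higher in testis was then 38.8% in GF and 38.6% in CV mice, against 51.3% in both with TMM; by upper quartile it was 43.2% and 43.1%. The 10 genes stayed called and higher in testis under each scaling, with Rec8 lowest at a log2 difference of 2.68 in GF and 2.56 in CV mice by library totals.

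**Figure D1:**
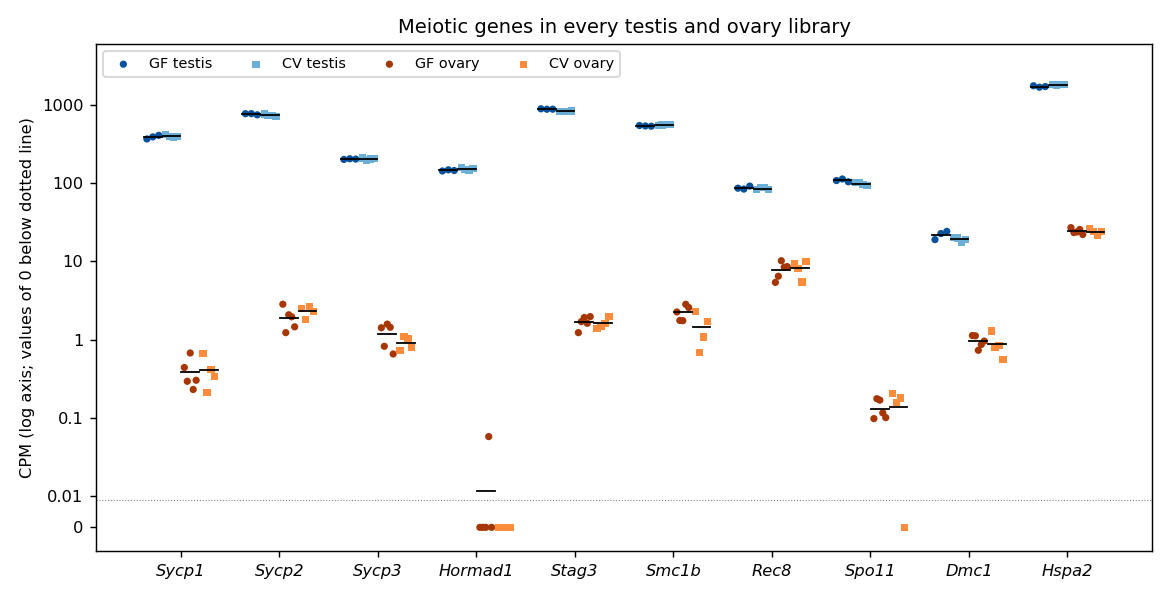
CPM (log axis) of the 10 genes in each library of GF testis (3), CV testis (4), GF ovary (5) and CV ovary (4). Points are libraries, black bars are group means and values of 0 lie below the dotted line; every testis point lies above every ovary point of its gene, with the smallest gap for Rec8 and Dmc1.

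The synaptonemal complex genes had testis levels above 100 CPM and ovary levels below 3 CPM. Sycp1, which encodes the transverse filament joining the paired axes, averaged 388 ± 20.4 CPM in GF testis and 0.389 ± 0.178 CPM in GF ovary (SD, n = 3 and 5), a log2 difference of 9.92 (SE 0.147, edgeR adjusted p = 3.10e-20). In CV mice Sycp1 averaged 397 ± 11.6 CPM in testis and 0.41 ± 0.194 CPM in ovary (SD, n = 4 each). Its ovary level rested on 36 counts in the 5 GF and 30 counts in the 4 CV libraries, so it was above 0 in every ovary library but close to the limit of counting.

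Sycp2 and Sycp3 form the lateral elements that lie along each axis. Sycp2 averaged 764 ± 14.7 CPM in GF testis and 1.92 ± 0.625 CPM in GF ovary, and 735 ± 19.6 CPM in CV testis and 2.32 ± 0.37 CPM in CV ovary. Sycp3 averaged 203 ± 1.8 CPM in GF testis and 1.18 ± 0.415 CPM in GF ovary, and 204 ± 5.5 CPM in CV testis and 0.911 ± 0.185 CPM in CV ovary. Sycp3 shares 660 exon bases with Chpt1, a gene of phospholipid synthesis on the other strand, which held 11953 counts in GF and 13005 in CV ovary. The strand setting of the counting is not known from the sources used here, so reads of both genes in the shared bases cannot be told apart.

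Hormad1, an axis protein that marks unpaired chromosome stretches and promotes DNA break formation, was the member with the fewest ovary counts. It had 143, 148 and 145 CPM in GF testis and 158, 150, 146 and 153 CPM in CV testis. In GF ovary 4 of the 5 libraries held no count and 1 held 1 count, and all 4 CV ovary libraries were at 0. The ratio of pooled levels in GF mice was 13416, with a counting interval of 2407 to 529976. In CV mice testis was at least 3674-fold higher, taking 3 counts over the ovary group as the limit that a count of 0 allows. These limits cover counting error only.

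The meiotic cohesin genes split into a pair with ovary levels under 1% of the testis level and 1 gene well above that. Stag3, the subunit that clamps the ring in meiotic cells, had 891, 880 and 881 CPM in GF testis against 1.23, 1.7, 1.92, 1.62 and 1.97 CPM in GF ovary, a log2 difference of 9.02 (SE 0.0938, edgeR adjusted p = 8.03e-22). Smc1b, a meiotic arm of the ring, averaged 539 ± 5.96 CPM in GF testis and 2.23 ± 0.483 CPM in GF ovary, and 557 ± 7.32 CPM in CV testis and 1.43 ± 0.696 CPM in CV ovary. Rec8, the meiotic subunit that is cut to let the chromatids go, had 86.2, 84 and 91.7 CPM in GF testis and 5.39, 6.47, 10.2, 8.43 and 8.58 CPM in GF ovary. Its log2 difference of 3.47 in GF and 3.37 in CV mice (SE 0.164 and 0.172) was the smallest of the 10, and its ovary level was 8.95% of the testis level in GF and 9.7% in CV mice.

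Both recombination genes had lower levels per kilobase than the axis genes in testis. Spo11 averaged 108 ± 4.37 CPM in GF testis and 0.132 ± 0.0378 CPM in GF ovary, and 98.2 ± 4.11 CPM in CV testis and 0.136 ± 0.093 CPM in CV ovary, where its level rested on 12 and 10 counts. Dmc1 averaged 21.9 ± 2.69 CPM in GF testis and 0.961 ± 0.168 CPM in GF ovary, and 19.3 ± 1.1 CPM in CV testis and 0.872 ± 0.305 CPM in CV ovary. The order of the pair differed between tissues: per kilobase of annotated exon, the ratio of Spo11 to Dmc1 was 3.1 ± 0.428 in GF testis and 0.0887 ± 0.0348 in GF ovary, and 3.17 ± 0.145 in CV testis and 0.0892 ± 0.0611 in CV ovary.

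Hspa2, a chaperone of the heat shock 70 family that spermatocytes need to leave meiotic prophase, had the highest level of the 10 in both tissues, also per kilobase. It averaged 1717 ± 37 CPM in GF testis and 24.4 ± 1.93 CPM in GF ovary, and 1819 ± 22.2 CPM in CV testis and 24.1 ± 1.78 CPM in CV ovary. Its log2 difference was 6.13 in GF and 6.25 in CV mice. Of the 13 other family members listed, 6 were called higher and 5 lower in testis in GF mice, and 6 higher and 7 lower in CV mice. Among those lower in testis, Hspa8, a chaperone of most cells, averaged 255 ± 3.64 CPM in GF testis and 887 ± 91 CPM in GF ovary. Hspa1l, which was chosen after its values were seen, averaged 1066 ± 42.8 CPM in GF testis and 0.351 ± 0.151 CPM in GF ovary.

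The ovary level of the members, as a share of the testis level, ran from 0.00795% (Hormad1, from 1 count) to 8.95% (Rec8) in GF mice and from 0 (Hormad1) to 9.7% (Rec8) in CV mice. The share was 0.1% for Sycp1, 0.122% for Spo11 and 0.191% for Stag3 in GF mice, and 4.38% for Dmc1. Spermatid markers, given for comparison, spanned a wide range too. The median log2 difference of testis over ovary was 9.85 in GF and 9.65 in CV mice for 12 round spermatid markers, and 13.85 in GF and 14.16 in CV mice for 12 elongating spermatid markers. Only 4 of the round and 1 of the elongating spermatid markers had enough counts to be tested in ovary alone. The sizes of these medians therefore rest largely on ovary counts near 0. The median of the 10 genes, 8.25 in GF and 8.46 in CV mice, was below both, which for that reason is not read as a smaller tissue gap. For the 111 other meiotic genes described below, general cohesin and repair genes among them, the median was 3.09 in GF and 3.20 in CV mice. Of these, 96 were called higher and 14 lower in testis in GF mice, and 95 higher and 12 lower in CV mice. These are descriptions of group levels.

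Compared per kilobase of annotated exon, the order of levels in testis was Hspa2, Sycp3, Stag3, Smc1b, Sycp2, Sycp1, Hormad1, Rec8, Spo11 and Dmc1, the same in GF and CV mice. Mean levels in GF testis were 649 ± 14 CPM per kb for Hspa2, 161 ± 1.42 for Sycp3, 154 ± 1.05 for Stag3, 133 ± 1.47 for Smc1b, 128 ± 2.46 for Sycp2 and 109 ± 5.74 for Sycp1. Below these came Hormad1 at 84.1 ± 1.34, Rec8 at 29.8 ± 1.36, Spo11 at 27.6 ± 1.11 and Dmc1 at 9.01 ± 1.1 CPM per kb. Of neighbours in this order, the library ranges overlapped for Rec8 and Spo11 in GF testis and for no pair in CV testis. The 5 genes from Sycp3 to Sycp1 thus lay between 109 and 161 CPM per kb in GF testis.

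In ovary the order differed below Hspa2. Rec8 came next, at 2.66 ± 0.645 CPM per kb in GF and 2.81 ± 0.686 CPM per kb in CV ovary, followed by Sycp3 at 0.937 ± 0.328 in GF and 0.721 ± 0.147 in CV ovary. Smc1b, Dmc1, Sycp2 and Stag3 lay between 0.282 and 0.552 CPM per kb in the 2 groups, with overlapping neighbours, and Sycp1, Spo11 and Hormad1 were last. The ratio of Stag3 to Rec8 per kb was 5.19 ± 0.239 in GF testis and 0.113 ± 0.0159 in GF ovary, and 4.99 ± 0.211 in CV testis and 0.105 ± 0.0329 in CV ovary, so the 2 tissues did not overlap. Library composition is the same for both genes of such a ratio and cancels out.

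The meiotic cohesin genes were also set beside their counterparts of dividing body cells, a comparison chosen after the values were seen. Per kb, Smc1b exceeded Smc1a by a ratio of 48.6 ± 1.71 in GF testis, against 0.0224 ± 0.00452 in GF ovary. In CV mice the ratio was 49 ± 4.62 in testis and 0.0149 ± 0.00804 in ovary. Stag3 exceeded Stag2 by 16.9 ± 1.08 in GF testis and 13.9 ± 0.37 in CV testis, against 0.011 ± 0.00186 in GF ovary and 0.0103 ± 0.00154 in CV ovary. Each of these meiotic forms thus outnumbered its general form in every testis library and in no ovary library. Rec8 was different: its ratio to Rad21 was 0.852 ± 0.0249 in GF testis and 0.0927 ± 0.0241 in GF ovary, so Rad21 was the more abundant in both. Rad21l, a further meiotic form of Rad21, reached a ratio of 0.0997 ± 0.018 in GF testis and 0.00199 ± 0.00119 in GF ovary.

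For the pairs of Smc1b with Smc1a and of Stag3 with Stag2, the 2 tissues differed from both sides. Smc1a was lower in testis, at 15.8 ± 0.404 CPM in GF testis against 142 ± 6.28 CPM in GF ovary, a log2 difference of -3.18 (SE 0.0743, edgeR adjusted p = 1.44e-17). Stag2 was lower in testis by a log2 difference of -1.56 in GF and -1.38 in CV mice. Rad21 and Stag1, also general forms, did not follow. Rad21 was higher in testis, by 0.27 in GF and 0.20 in CV mice, and Stag1 stood at -0.17 and -0.08. These small differences are below the shift between scalings. Smc3, the arm common to both kinds of ring, stood at 31.8 ± 0.894 CPM per kb in GF testis and 21.5 ± 0.993 CPM per kb in GF ovary, a log2 difference of 0.55 on the CPM scale that is smaller than the shift between scalings.

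**Figure D2:**
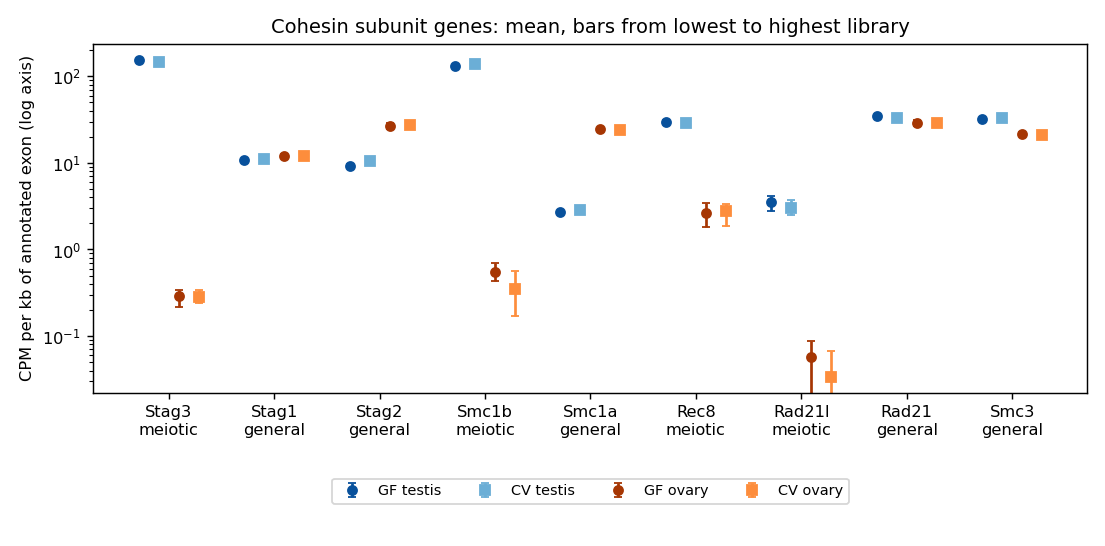
CPM per kb of annotated exon (log axis) of cohesin subunit genes in GF testis, CV testis, GF ovary and CV ovary. Points are group means and bars run from the lowest to the highest library, with bars that reach 0 leaving the axis at the bottom (Rad21l in ovary); Stag3 and Smc1b lie above their general counterparts in testis and below them in ovary.

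Promoter windows of the 10 genes were read from RefSeq (GRCm38.p6; 250 bases before and 50 after the start), and 9 matched by symbol, all but Spo11. Motif letters were searched on both strands: TCCCGC, the core recognised by E2F factors, CACGTG, the E-box recognised by the MAX family among others, and CNCCTCAG, a motif reported for the meiotic entry factors STRA8 and MEIOSIN. E2F6, MGA and MAX are part of a repressor complex known to keep meiotic genes silent in other cells, which is why the first motifs were chosen. The E2F core was found in 7 of the 9 windows and in 6562 of all 32851 windows, and the E-box in 4 of 9 and in 7.15% of all. CNCCTCAG was found in 1 of 9 and in 7.94% of all. Sycp1, Sycp3, Hormad1 and Stag3 held both of the first 2, and Sycp2 and Hspa2 held neither. By the GENCODE M21 positions, the whole window of Stag3 and the E2F core of Rec8 lie inside these genes, past their annotated starts. Of 82 windows of other meiotic genes, 39 held the E2F core and 9 the E-box.

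Stretches upstream of the start are printed for 4 genes that differ in these letters, each 5′ to 3′ on the gene's own strand with the matches in capitals (GCGGGA is the E2F core on the opposite strand). Hormad1 and Sycp3 hold an E2F core and a pair of E-boxes, Sycp1 an E-box (its E2F core lies past the start and is not printed) and Smc1b an E2F core. The stretches lie at chr3:95559427-95559676 on the plus strand for Hormad1, chr10:88459337-88459568 on the plus strand for Sycp3, chr3:102936101-102936350 on the minus strand for Sycp1 and chr15:85131965-85132207 on the minus strand for Smc1b.
Hormad1: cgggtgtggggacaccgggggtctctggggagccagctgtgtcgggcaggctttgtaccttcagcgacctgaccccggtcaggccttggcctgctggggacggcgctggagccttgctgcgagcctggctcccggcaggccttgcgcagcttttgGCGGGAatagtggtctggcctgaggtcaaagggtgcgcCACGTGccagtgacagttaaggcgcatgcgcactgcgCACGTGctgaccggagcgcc
Sycp3: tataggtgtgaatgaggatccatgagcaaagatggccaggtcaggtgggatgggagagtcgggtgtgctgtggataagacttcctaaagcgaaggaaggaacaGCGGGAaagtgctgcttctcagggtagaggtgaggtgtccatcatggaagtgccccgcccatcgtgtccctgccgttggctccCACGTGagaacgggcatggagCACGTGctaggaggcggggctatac
Sycp1: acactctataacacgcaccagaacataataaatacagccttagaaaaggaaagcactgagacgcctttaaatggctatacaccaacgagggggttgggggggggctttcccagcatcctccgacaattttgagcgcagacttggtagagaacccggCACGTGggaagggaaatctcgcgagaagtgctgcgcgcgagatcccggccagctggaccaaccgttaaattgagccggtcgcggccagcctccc
Smc1b: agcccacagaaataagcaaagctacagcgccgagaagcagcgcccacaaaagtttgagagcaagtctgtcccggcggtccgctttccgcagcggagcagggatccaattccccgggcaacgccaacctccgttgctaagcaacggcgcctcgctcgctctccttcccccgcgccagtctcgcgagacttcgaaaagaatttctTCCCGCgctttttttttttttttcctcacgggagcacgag
The windows of the 9 genes were 56.7% to 69% G and C, against a median of 52.7% over all windows. A match is a description of letters and not a site in use. In the list of meiotic entry and transcription genes, 12 of 16 were called higher and 3 lower in testis in GF mice, with the same counts in CV mice. The 3 lower genes were E2f6, Max and Mga. The other 13 of the 16 had positive log2 differences in GF and in CV mice, Pcgf6 and L3mbtl2 of the same complex among them. The part of this complex in the levels of the 10 genes was not tested. E2f6 was lower in testis, at 7.07 ± 0.787 CPM in GF testis and 27.6 ± 2.51 CPM in GF ovary, as was Max at 13.6 ± 0.471 CPM in GF testis and 50.5 ± 4.38 CPM in GF ovary. Mga was lower in testis as well, at 150 ± 3.76 CPM in GF testis and 261 ± 9.55 CPM in GF ovary, and all 3 were called in GF and in CV mice.

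Between GF and CV testis, 3 of the 10 genes were called: Spo11 and Stag3 rose and Hspa2 fell in GF testis. Over all 20269 genes tested 8.08% were called, 3.67% higher and 4.41% lower in GF testis. DESeq2 and limma-voom called the same 3 of the 10. All 3 changes were small, between 0.944-fold and 1.1-fold, below the median absolute log2 change of 0.224 of all called genes, and 1323 called genes changed by more. The library ranges of GF and CV testis did not overlap for 4 of the 10 genes, against 17.1% of all genes. The median log2 change of the 10 genes was 0.02, against 0.00 over all genes, with 5 positive and 5 negative.

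Spo11, whose product makes the DNA breaks of meiotic recombination, had 108, 113 and 104 CPM in GF testis, against 101, 102, 96.1 and 93.5 CPM in CV testis. The 3 GF libraries lay above all 4 CV libraries, by little at the edge. Its log2 change was 0.14 (SE 0.04, edgeR adjusted p = 0.0184), and the adjusted p was 0.0739 without CV replicate 3, 0.0575 without GF replicate 1 and 0.207 without GF replicate 2.

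Stag3 had 891, 880 and 881 CPM in GF testis, against 831, 831, 823 and 834 CPM in CV testis. The libraries of each group lay close together, with an SD of 6.03 CPM in GF and 4.72 CPM in CV testis. These SDs, 0.682% and 0.569% of the mean, are below the biological coefficient of variation of 4.17% in testis. They come from 3 and 4 libraries and may understate the spread. The log2 change of Stag3 was 0.09 (SE 0.0254, edgeR adjusted p = 0.0174). The call did not hold without CV replicate 2 (adjusted p = 0.0512), CV replicate 3 (0.074), GF replicate 1 (0.091), GF replicate 2 (0.0611) or GF replicate 3 (0.089), while the log2 change stayed between 0.08 and 0.09.

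Hspa2 had 1755, 1681 and 1715 CPM in GF testis, against 1834, 1799, 1801 and 1842 CPM in CV testis. Every GF library lay below every CV library. Its log2 change was -0.08 (SE 0.0248, edgeR adjusted p = 0.0295), and the adjusted p was 0.0724 without CV replicate 1, 0.17 without GF replicate 2 and 0.109 without GF replicate 3. Without GF replicate 2 none of the 10 genes was called. In a joint fit of all 16 libraries, which shares 1 estimate of the spread with the more variable ovary, none was called either and 122 genes were called in all.

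**Figure D3:**
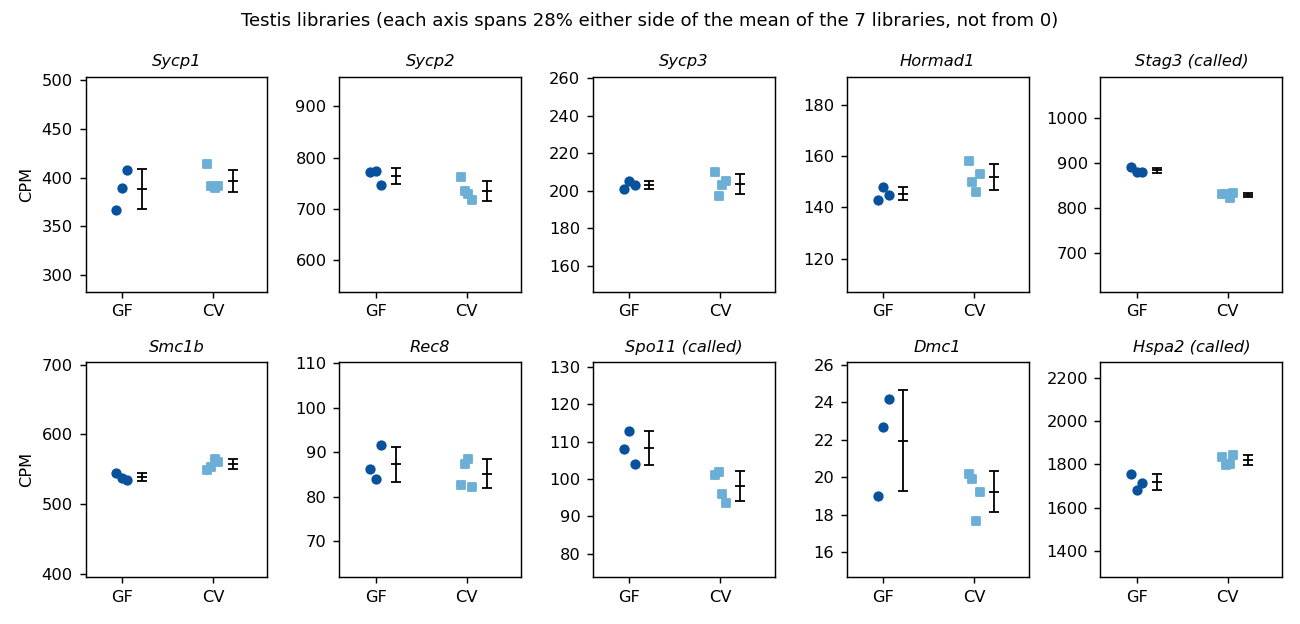
CPM of the 10 genes in GF testis (3 libraries) and CV testis (4 libraries), with the mean and SD of each group beside its points; the axes do not start at 0. GF and CV points separate for Spo11, Stag3, Smc1b and Hspa2, and the panels of Sycp1, Sycp2, Sycp3, Hormad1, Rec8 and Dmc1 overlap.

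The other 7 genes were not called. Smc1b had 545, 538 and 534 CPM in GF testis, against 549, 554, 565 and 561 CPM in CV testis, all lower in GF testis, with a log2 change of -0.05 (adjusted p = 0.337). Stag3 and Smc1b, partners in the same ring, therefore lay on opposite sides: their ratio per kb was 1.15 to 1.17 in GF testis and 1.03 to 1.07 in CV testis. That ratio was examined after the values were seen and was not tested. Dmc1 had 19, 22.7 and 24.2 CPM in GF testis, against 20.2, 19.9, 17.7 and 19.2 CPM in CV testis. It had the largest log2 change of the 10, 0.19 (SE 0.076, adjusted p = 0.137), and the widest spread, with GF replicate 1 among the CV libraries; without that library it was 0.28 (edgeR adjusted p = 0.0251), without GF replicate 3 it was 0.11 (0.581) and without CV replicate 3 it was 0.15 (0.339).

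Of the axis genes, Sycp1 averaged 388 ± 20.4 CPM in GF and 397 ± 11.6 CPM in CV testis. Its log2 change of -0.03 had an approximate 95% interval of -0.10 to 0.03, set by normal limits that run narrow with few libraries. Sycp2 had a log2 change of 0.06 (interval 0.00 to 0.11, adjusted p = 0.263) and Hormad1 one of -0.06 (interval -0.13 to 0.01, adjusted p = 0.349). Sycp3, with 203 ± 1.8 CPM in GF and 204 ± 5.5 CPM in CV testis, had an interval of -0.07 to 0.06. Rec8 averaged 87.3 ± 3.99 CPM in GF and 85.2 ± 3.22 CPM in CV testis, with an interval of -0.05 to 0.12. For these 5 genes the intervals reached no more than 0.13 on the log2 scale in either direction.

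**Figure D4:**
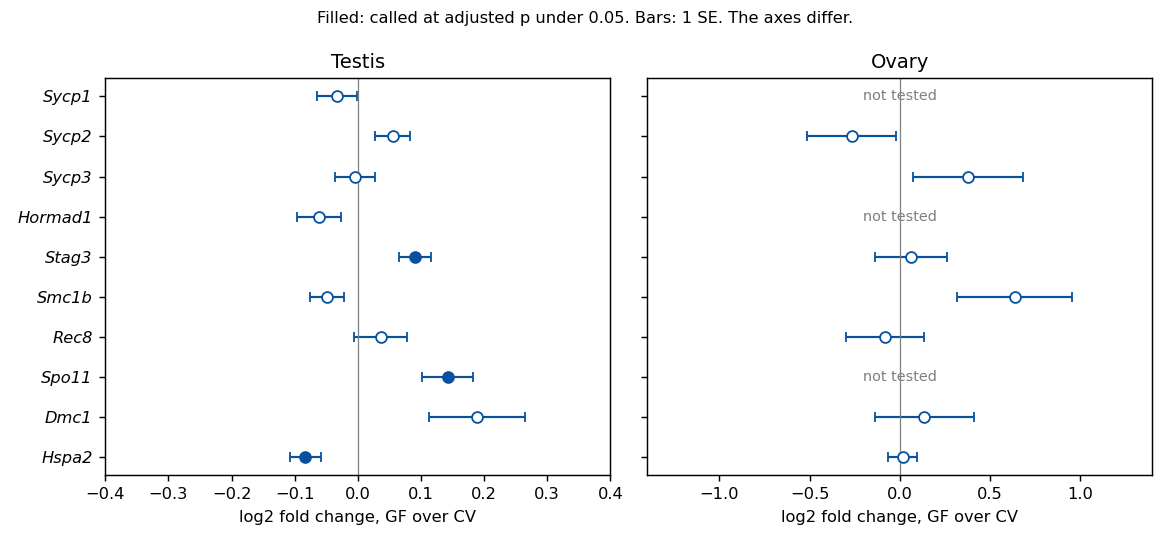
Log2 fold change of GF over CV in testis (left) and in ovary (right, wider axis) for the 10 genes. Points are edgeR estimates, bars are 1 SE and filled points are called; Spo11, Stag3 and Hspa2 are filled in testis, no point is filled in ovary, and Sycp1, Hormad1 and Spo11 were too low to test in ovary.

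Other meiotic genes were taken from 8 lists of 113 symbols, of which 111 were found. Between GF and CV testis 6 were called higher and 5 lower of 110 tested, or 10% against the 8.08% of all genes called, with a median log2 change of 0.03 against 0.00. The share was thus near that of all genes, and the called genes are given as single genes. Atr, a kinase that marks unpaired chromosomes, rose to 1234 ± 49.2 CPM in GF testis, against 1035 ± 16.1 CPM in CV testis (log2 0.25, SE 0.0271, edgeR adjusted p = 7.30e-09). Brca2, which loads recombinases onto DNA, rose to 180 ± 1.18 CPM in GF testis, against 161 ± 2.48 CPM in CV testis. Mdc1, which spreads the silencing mark over the sex chromosomes, rose by a log2 of 0.16, and Zcwpw1, a reader of recombination hotspot marks, by 0.19. Among genes of pachytene, the stage of full pairing, Piwil1, a piRNA-binding protein, rose to 573 ± 3.4 CPM in GF testis, against 479 ± 24.8 CPM in CV testis, and Tcfl5, a spermatocyte transcription factor, fell by 0.09 on the log2 scale.

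Of the other synaptonemal complex genes, 1 of 7 tested was called: Six6os1 (4930447C04Rik in the table), a central element component, fell to 35 ± 1.79 CPM in GF testis, against 41.6 ± 0.64 CPM in CV testis (log2 -0.25, edgeR adjusted p = 0.00225). Of the 12 other cohesin genes, Stag2 fell by 0.19 on the log2 scale and Wapl (Wapal in the table), which releases cohesin, rose by 0.10. Brme1 (4930432K21Rik), a partner of the meiotic BRCA2 complex, fell by 0.12. edgeR called none of 15 crossover genes, 6 telomere attachment genes and 16 genes of meiotic entry and transcription, each with 1 at an unadjusted p under 0.05, and none of the 13 other heat shock 70 genes, with 2.

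Markers of other cell stages moved between GF and CV testis too. Of 12 round spermatid markers 6 fell and none rose, with a summed level of 3125 to 3159 CPM in GF and 3142 to 3338 CPM in CV testis. Of 12 elongating spermatid markers 2 fell, Odf1 of the tail and Oaz3, at 28062 to 29879 CPM in GF and 29029 to 30928 CPM in CV testis. By sign, 10 of the 12 round and 11 of the 12 elongating spermatid markers were lower in GF testis, as were all 8 macrophage and 7 of 8 peritubular and vascular markers, most of them not called. Of 14 spermatogonia markers tested 1 rose, at sums of 713 to 752 CPM in GF and 719 to 753 CPM in CV testis. By sign 11 of the 14 were higher in GF testis, with a median log2 change of 0.16 and 4 at an unadjusted edgeR p under 0.05. No Sertoli or Leydig marker was called by edgeR, with 0 and 1 at an unadjusted p under 0.05. By sign 10 of 13 Sertoli and 6 of 10 Leydig markers were lower in GF testis. Peritubular and vascular markers summed to 149 to 158 CPM in GF and 161 to 180 CPM in CV testis, and macrophage markers to 123 to 129 CPM in GF and 134 to 138 CPM in CV testis, neither overlapping, with 1 of 8 called lower in each list. Of 6 germ cell markers of both sexes Tdrd1 and Tdrd9 rose, with sums of 3475 to 3497 CPM in GF and 3414 to 3446 CPM in CV testis. Of 7 markers tested from a list for oviduct and ovarian surface epithelium, Foxj1 and Epcam fell. That list summed to 189 to 195 CPM in GF and 215 to 234 CPM in CV testis. Foxj1 averaged 107 CPM in GF testis against 47.1 CPM in GF ovary, so in testis it need not mark such epithelium. Of 8 oocyte markers tested Padi6 rose, at sums of 68 to 70.6 CPM in GF and 64.6 to 72.6 CPM in CV testis. No marker of the spermatid, spermatogonia, Sertoli, Leydig, peritubular or macrophage lists was at 0 in testis. The part of these cell markers in the changes of Spo11, Stag3 and Hspa2 was not tested.

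Between GF and CV ovary none of the 10 genes was called and none had an unadjusted p under 0.05. Sycp1, Hormad1 and Spo11 were too low to test, so 7 were tested. Over all 18095 genes 0.177% were called, and 6.48% had an unadjusted p under 0.05. The ranges of GF and CV ovary overlapped for all 7, where 2.72% of all genes had ranges apart. DESeq2 and limma-voom called none of the 7 either.

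Smc1b came nearest, with 2.26, 1.76, 1.75, 2.83 and 2.57 CPM in GF ovary, against 2.27, 0.69, 1.08 and 1.69 CPM in CV ovary. The ranges overlapped through CV replicate 1. Its log2 change was 0.64 (SE 0.318, edgeR adjusted p = 0.785), resting on 207 counts in the 5 GF and 105 counts in the 4 CV libraries. It was 0.96 without CV replicate 1 and 0.40 without CV replicate 2, not called in either case. The approximate interval of Smc1b, 0.01 to 1.26, leaves out 0 although its unadjusted edgeR p was 0.072, so these intervals are too narrow. Sycp3 had 1.42, 0.823, 1.58, 1.44 and 0.656 CPM in GF ovary, against 0.724, 1.11, 1.02 and 0.788 CPM in CV ovary, a log2 change of 0.38 (interval -0.22 to 0.97). Sycp2 had a log2 change of -0.27 (interval -0.75 to 0.22). Differences of 1.5-fold lay inside the intervals of Smc1b, Sycp3, Sycp2 and Dmc1, so differences of that size are compatible with these libraries.

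Hspa2, the best counted of the 10 in ovary, had the narrowest interval. It had 27, 23.4, 23.8, 25.6 and 22.1 CPM in GF ovary, against 26.2, 24.2, 21.8 and 24.2 CPM in CV ovary, a log2 change of 0.02 (interval -0.14 to 0.17). Rec8 had 5.39, 6.47, 10.2, 8.43 and 8.58 CPM in GF ovary, against 9.51, 8.17, 5.45 and 9.9 CPM in CV ovary, a log2 change of -0.08 (interval -0.51 to 0.34). Stag3 had a log2 change of 0.06 (interval -0.33 to 0.45) and Dmc1 one of 0.13 (interval -0.40 to 0.67). The spread within each group was as wide as any gap between the groups. Oocyte markers summed to 238 to 408 CPM in GF and 242 to 372 CPM in CV ovary, and edgeR called 0 of 16 tested, with 0 at an unadjusted p under 0.05. By sign 14 of the 16 were lower in GF ovary, with a median log2 change of -0.19 against 0.01 over all genes, and their part in the values of the 10 genes was not tested. Of 78 other meiotic genes tested in ovary none was called by edgeR and none had an unadjusted p under 0.05, with a median log2 change of 0.04.

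**Figure D5:**
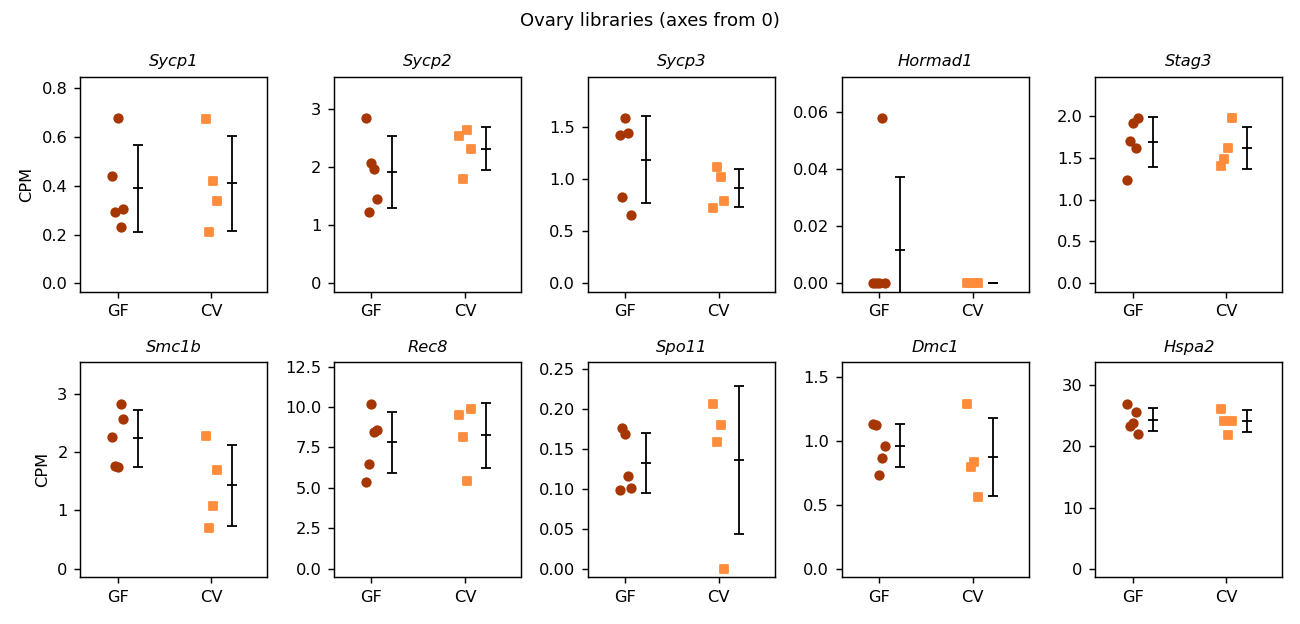
CPM of the 10 genes in GF ovary (5 libraries) and CV ovary (4 libraries), axes from 0, with the mean and SD of each group beside its points. GF and CV points overlap for every gene with counts in both groups; Hormad1 has 1 count in 1 GF library and none elsewhere.

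Whether the GF change differed between testis and ovary was tested as an interaction over all 16 libraries. Sycp1, Hormad1 and Spo11, too low to test in ovary alone, entered this fit through their testis counts. Their SE of 0.313, 0.85 and 0.456 leave room for large differences. None of the 10 genes was called by edgeR and 1 had an unadjusted p under 0.05, where 0.132% of 21977 genes were called and 6.93% had such a p. That gene was Smc1b, with a log2 change of -0.05 in testis and 0.64 in ovary and a difference of -0.70 (SE 0.272, edgeR adjusted p = 0.618). DESeq2 called it (-0.71, adjusted p = 0.0209), and limma-voom did not. For the 3 genes called in testis the differences were 0.20 for Spo11 (SE 0.456), 0.01 for Stag3 (SE 0.147) and -0.12 for Hspa2 (SE 0.0865). Their edgeR adjusted p were 0.994, 1 and 0.858, so their changes in testis are not shown to differ from those in ovary. With 12 counts in GF and 10 in CV ovary, Spo11 could not show a difference of the size of its testis change.

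Over the 16 libraries, the 5 genes whose centred log2 CPM lay closest to the mean profile of the 10 genes were 4930442J19Rik, Olfr112, an olfactory receptor gene, 4931406B18Rik, Pih1d3, a gene of dynein arm assembly, and AC139207.1. Their root-mean-square distance was 0.117 to 0.14 on the log2 scale among 19017 genes ranked. All 5 had means of 18.1 to 21.8 CPM in testis and 0 in ovary. Of the 10 genes themselves, Sycp3 lay closest to the mean profile at 0.282 and Rec8 farthest at 2.07. The log2 CPM held a prior count of 2, so for a gene at 0 in ovary the gap follows from its testis level and that count. The measure is set almost wholly by the gap between the tissues and is a description.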

How the data were processed

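Per the labels' protocols, total RNA was depleted of ribosomal RNA and sequenced as stranded paired-end libraries. The authors deposited 1 table of raw read counts per gene, not normalised, for 16 libraries. The submitters' processing notes name STAR 2.4.0i and mm10. How reads were assigned to genes, with which annotation and strand setting, is not given in the sources used here, so antisense partners may share reads. All columns matched a sample by title.

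Counts were fitted with edgeR 4.0.16 in R 4.3.3 (limma 3.58.1, DESeq2 1.42.0 for alternatives): TMM, filterByExpr, robust quasi-likelihood F test, Benjamini-Hochberg over all genes tested, called at adjusted p under 0.05. GF and CV were compared with 1 fit per tissue, and tissues and the interaction in 1 fit of all 16 libraries. CPM used TMM within a tissue, with tissues set against each other by TMM over 16 libraries. Positions and exon lengths came from GENCODE M21 (GRCm38), which held 36308 of the 38087 genes. The counting interval of a ratio of pooled counts is an exact binomial interval at 95%. Intervals of log2 changes are normal 95% limits from the SE, which run narrower than the F test with few libraries. The fits were checked on simulated data.

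The members and lists were chosen with earlier results of these data known, and 257 of 259 list symbols were found. The 10 members were always named; of each other list, up to 3 called genes by smallest p with at least 1 CPM, and for tissues up to 3 higher in ovary; the text names some of these. Hspa1l, Rad21, Rad21l, Stag1, Smc3 and the cohesin ratios were chosen after their values were seen. Alternatives were DESeq2, limma-voom, library totals, upper quartile, no filter, a replicate block, other sample sets and leaving out each library. No pair of libraries agreed within sampling noise (chi-square per degree of freedom 2.37 to 34.3).

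GF and CV libraries share replicate numbers. In ovary the deviations of same-numbered libraries correlated at 0.366, 0.246, 0.2 and 0.36. GF replicate 3 correlated better with a CV library of another number than with its own. The numbers were taken to pair the ovary libraries, which comes from the data and not from a label. The ovary changes, SE, intervals and p-values given above are from the fit without this pairing. With the block, and so without GF replicate 5, 91 genes were called in ovary against 32, and none of the members. Smc1b then had a log2 change of 0.63 (edgeR adjusted p = 0.483), against 0.64 without the block. Sycp3 had 0.52 (edgeR adjusted p = 0.643), against 0.38.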

Additional observations from a re-analysis of the deposited data

Results flagged for a closer look

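In 29 groups of 4 or 5 libraries, 2 values of the 10 genes stood far from the others of their group by Dixon's criterion, which flags about 1 in 20 groups by chance. Sycp1 was at 414 CPM in CV testis replicate 1 and at 390 to 392 CPM in the other 3 CV testis libraries. Hormad1 was at 0.0578 CPM in GF ovary replicate 4, which is 1 count, and at 0 in the other 4 GF ovary libraries. With the other libraries at 0 the criterion flags any count, so the chance rate does not apply to Hormad1. No group difference of the 10 genes was called as differing between the tissues by edgeR.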

How the results depend on the processing

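The tissue difference was the firmest result: all 10 genes were called higher in testis in GF and in CV mice under every alternative run. The testis calls were the least firm. With 3 genes called, the count without 1 library ran from 0 to 3, and the joint fit called 0; the count over all genes, 1638, ran from 996 to 2084 without 1 library and was 122 in the joint fit. Same-numbered testis libraries correlated at -0.0426, 0.0146 and -0.0252, so the numbers are not taken to pair them; the replicate block, which also leaves out CV replicate 4, called 2 of the 10 genes there and 1692 genes in all. Leaving out that library alone gave 3 and 2084, and Spo11 then had an adjusted p of 0.043, against 0.0678 with the block. Ovary calls over all genes, 32, were 95 with DESeq2, 93 in the joint fit and 91 with the replicate block. Interaction calls, 29, were 112 with DESeq2, which called 1 of the 10 genes, and 13 to 37 without 1 library. The cause of these moves was not tested.

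Signs turned only for changes that were not called. In testis Sycp3 was 0.0013 by library totals; without 1 library Sycp1 ran from -0.07 to 0.0014, Sycp3 from -0.02 to 0.01 and Rec8 from -0.0045 to 0.06. In ovary Stag3 was -0.0047 with the replicate block; without 1 library Stag3 ran from -0.0030 to 0.17, Rec8 from -0.23 to 0.03, Dmc1 from -0.02 to 0.39 and Hspa2 from -0.02 to 0.06. In the interaction Sycp1 was -0.03 with the replicate block, and Spo11 -0.16 and Dmc1 -0.01 with limma-voom; without 1 library Sycp1 ran from -0.34 to 0.30, Stag3 from -0.10 to 0.08, Rec8 from -0.01 to 0.25, Spo11 from -0.08 to 0.59 and Dmc1 from -0.23 to 0.20. In ovary both counts and spread limit the values: Sycp1, Spo11 and Hormad1 had at most 36 counts in a group, and Rec8, with 717 counts in GF and 605 in CV ovary, still had an SE of 0.216.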
